A study of Mus musculus with 8 samples.

Results

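The genes examined here were Hmgcs1, Idi1, Fdps, Fdft1, Sqle, Lss, Cyp51 and Dhcr7, which encode 8 enzymes of cholesterol synthesis and stand in that order along the pathway. They were taken as every non-control probe whose deposited gene name is one of these 8, which gave 10 probes for 8 genes, of 34652 gene names on the arrays. The genes had been put together under a heading of cholesterol synthesis and uptake because their activin minus SAG difference was thought to turn with the sort gate, so they were chosen by their values on the 4 arrays of sorted cells. Their activin minus SAG differences are given as a description. None of the 8 is an uptake gene. The difference changed sign in 4 of the 8, and uptake genes are given after them.

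The study asked how activin and hedgehog signals act on mouse embryonic stem (ES) cells that become anterior neural tissue. K/l-EB5 cells, a male 129/Ola ES line with green fluorescent protein (GFP) at the Rax locus, were neuralized and received the Wnt pathway inhibitor IWR-1-endo (5 µM) from day 3, and 12 h later either activin A (10 ng/ml) or the Smoothened agonist SAG (100 nM). At 10 days in vitro each culture was sorted by GFP, which gave 4 arrays: activin RAX-positive, activin RAX-negative, SAG RAX-positive and SAG RAX-negative. The remaining culture, the Wi control, was of another male 129/Ola line, E14Tg2A, which received the inhibitor alone and was not sorted. The other 3 arrays held the eye, the diencephalon/hypothalamus and the cortex of Sv129s6 embryos at embryonic day 12.5, 3 embryos in all. All 5 cultures therefore shared the Wnt inhibitor, and the control differed from the sorted cells in its line and in the absence of sorting as well as of the second agent.

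Each group was 1 array, hybridised with Cy3-labelled RNA pooled from 3 sets, so no spread between cultures or embryos was measured and no p-value is given. Levels are log2 of the processed spot intensity minus the array's 75th percentile, so 0 is the 75th percentile and 1 unit is a 2-fold step. Levels of different genes are not compared, because probes differ in their response. The scanner software's own error came to 0.20 (log2) for a difference between 2 arrays, or 0.40 as a 95% interval, and covers the reading of the array alone. It was 0.14 on every array for the probe used for each of the 8 genes. For them the error is therefore a limit of fixed size and not a measured spread. A gene was called higher or lower where the brighter array was well above background and the difference was at least 2-fold. Between 59.5% and 79.3% of spots were well above background on the 8 arrays, with no saturated spot. The activin RAX-negative array had the lowest share and the activin RAX-positive array the highest. The Wi control alone was on a second slide, so slide and control cannot be told apart. RAX-positive and RAX-negative cells lay in different columns of a slide and activin and SAG in different rows, and these positions cannot be told apart from the groups either.

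Cells make cholesterol from acetyl-CoA. Hmgcs1 opens the mevalonate route, Idi1 and Fdps build farnesyl diphosphate, Fdft1 commits it to squalene, Sqle and Lss turn squalene into lanosterol, and Cyp51 and Dhcr7 act on the way from lanosterol to cholesterol. These genes are known targets of SREBP2, the product of Srebf2, which SCAP and INSIG hold in the endoplasmic reticulum while sterols are plentiful and release when they are scarce. The embryonic brain makes most of its own cholesterol, and hedgehog signalling uses sterols both on the ligand and on Smoothened, the protein that SAG activates.

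Promoters are shown because the shared control of this family is read there by SREBP2 together with NF-Y. RefSeq's promoter table (GRCm38.p6, 250 bases before to 50 after each gene's start) listed 5 of the 8 genes, Hmgcs1, Idi1, Lss, Cyp51 and Dhcr7, the last with several starts. In the 3 printed here, capitals mark the sterol regulatory element letters TCACNCCAC and the NF-Y letters CCAAT on either strand.
Hmgcs1, chr13:119690101-119690400, plus strand: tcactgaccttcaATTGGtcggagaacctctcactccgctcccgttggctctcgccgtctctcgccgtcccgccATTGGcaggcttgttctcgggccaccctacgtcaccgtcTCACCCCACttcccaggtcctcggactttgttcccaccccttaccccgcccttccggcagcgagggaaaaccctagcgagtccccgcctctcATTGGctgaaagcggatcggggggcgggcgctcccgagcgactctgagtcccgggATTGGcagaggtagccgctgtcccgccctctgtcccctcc
Idi1, chr13:8885356-8885655, plus strand: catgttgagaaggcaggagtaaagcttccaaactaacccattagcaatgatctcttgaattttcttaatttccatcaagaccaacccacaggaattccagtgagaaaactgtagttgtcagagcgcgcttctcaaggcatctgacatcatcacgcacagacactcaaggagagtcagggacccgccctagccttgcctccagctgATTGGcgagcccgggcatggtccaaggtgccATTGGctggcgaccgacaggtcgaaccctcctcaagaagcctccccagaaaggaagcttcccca
Lss, chr10:76531355-76531654, plus strand: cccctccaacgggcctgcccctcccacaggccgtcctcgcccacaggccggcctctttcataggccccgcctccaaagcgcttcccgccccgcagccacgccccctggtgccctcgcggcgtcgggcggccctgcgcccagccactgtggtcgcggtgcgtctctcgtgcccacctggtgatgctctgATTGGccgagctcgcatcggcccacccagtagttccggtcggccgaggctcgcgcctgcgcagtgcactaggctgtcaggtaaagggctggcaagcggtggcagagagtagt
The letters TCACNCCAC, searched on both strands, stood in 1 of the 5 genes, Hmgcs1, at base 114 of the 300, and in at least 1 promoter of 1.44% of all 27025 genes in the table. CCAAT stood in 5 of 5 genes, against 41.1% of all genes, and Hmgcs1 held it at 4 places, while of the 3 listed starts of Dhcr7 only 1 held it. GGGCGG, the GC box, also stood in 5 of 5 genes and in 38.2% of all genes, and CACGTG, the E-box, in Dhcr7 alone and in 8.09% of all genes. By promoter, the shares over all 32851 were 1.24% for TCACNCCAC, 37.4% for CCAAT, 35.7% for GGGCGG and 7.15% for CACGTG. These are matches of letters in a window and no binding was measured.

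The probe for Fdps is shown with 3 others because it shares long runs of letters with them. Capitals mark a run of 31 bases common to the first 3 sequences, all in mm9.
Fdps, probe on chromosome 3: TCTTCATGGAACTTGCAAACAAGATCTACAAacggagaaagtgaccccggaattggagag
NAP111402-1, probe on chromosome 6: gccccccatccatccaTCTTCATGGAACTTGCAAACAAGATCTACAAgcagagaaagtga
A_55_P2046411, probe on chromosome 13: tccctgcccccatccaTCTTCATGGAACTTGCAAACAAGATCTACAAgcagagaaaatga
In the next sequence capitals mark a run of 27 bases that it shares with the Fdps probe at the other end.
NAP002856-002, probe on chromosome X: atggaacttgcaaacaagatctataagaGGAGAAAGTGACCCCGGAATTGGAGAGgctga
Across the 8 arrays the 3 probes correlated with Fdps at r = 0.997, 0.993 and 0.992, as a description. RNA of near-identical copies could therefore not be told apart from Fdps RNA, and its values are uncertain to that extent. No other of the 8 genes had a main probe sharing 20 or more bases with another probe.

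The probes are 60 bases long and their positions are those of mm9 in the files. All 8 genes were well above background on all 8 arrays. Across the 5 cultures the levels lay close together in Hmgcs1, from 6.68 to 6.93. They ran from 3.92 to 5.22 in Idi1 and from 1.12 to 2.42 in Lss. In the eye the levels were lowest throughout. The activin RAX-negative array was highest of the sorted arrays for 7 of 8 genes (6 to 8 by scaling and probe rule). That held for 34.7% of the 20575 genes above background on all arrays. Hmgcs1 was the exception. The values of the sorted arrays chose the genes, so nothing is read from this count.

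**Figure D1:**
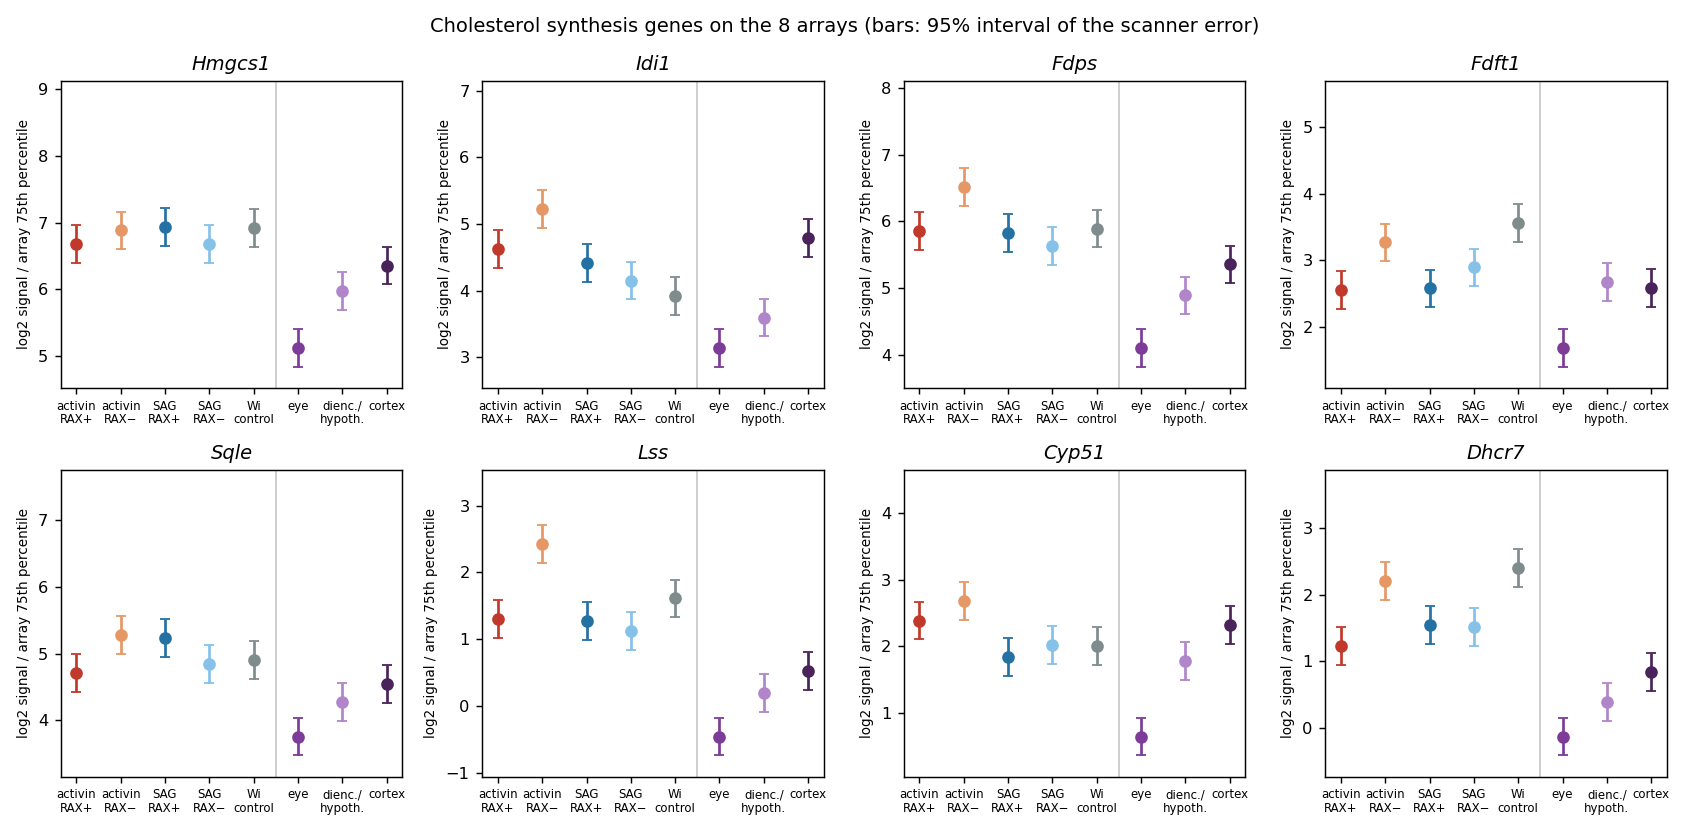
Level of each cholesterol synthesis gene on each of the 8 arrays, as log2 of the signal over the array's 75th percentile, with bars for the 95% interval of the scanner's own error and a line between cultures and tissues. Each panel spans the same number of log2 units, and the eye is the lowest point in all 8 panels.

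The Hmgcs1 probe lies on an unplaced stretch of chromosome 13 (chr13_random) at 114793 to 114852, minus strand. Hmgcs1, HMG-CoA synthase of the cytosol and the first enzyme here, had levels of 6.68 in activin RAX-positive, 6.88 in activin RAX-negative, 6.93 in SAG RAX-positive and 6.68 in SAG RAX-negative cells. It had 6.92 in the Wi control, 5.12 in the eye, 5.98 in the diencephalon/hypothalamus and 6.36 in the cortex. The 5 cultures lay within the scanner error of one another and all stood above the 3 tissues, although the step from the lowest culture to the cortex was inside that error. The activin minus SAG difference was -0.25 in RAX-positive and 0.20 in RAX-negative cells, both inside the error. A second, far dimmer probe gave -0.59 in RAX-positive and 0.45 in RAX-negative cells, the same signs.

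The Idi1 probe matches chr13:8891524-8891583, plus strand. Idi1, the isomerase that makes the starter unit for chain building, had levels of 4.63 in activin RAX-positive, 5.22 in activin RAX-negative, 4.41 in SAG RAX-positive and 4.15 in SAG RAX-negative cells. It had 3.92 in the Wi control, 3.14 in the eye, 3.60 in the diencephalon/hypothalamus and 4.79 in the cortex. In Idi1 the cortex stood second of the 8 arrays, above 4 of the 5 cultures. Activin minus SAG was 0.22 in RAX-positive and 1.07 in RAX-negative cells, the second a 2.10-fold difference.

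The Fdps probe matches chr3:88897549-88897608, minus strand. Fdps, farnesyl diphosphate synthase, had levels of 5.86 in activin RAX-positive, 6.51 in activin RAX-negative, 5.82 in SAG RAX-positive and 5.63 in SAG RAX-negative cells. It had 5.89 in the Wi control, 4.10 in the eye, 4.89 in the diencephalon/hypothalamus and 5.35 in the cortex. The activin RAX-negative array stood above the next by more than the scanner error, and the 3 tissues were separated from one another by more than that error. Fdps differed between activin and SAG by 0.03 in RAX-positive and 0.88 in RAX-negative cells.

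The Fdft1 probe matches chr14:63765750-63769990, minus strand, in pieces that span far more than its own length. Fdft1, squalene synthase, had levels of 2.55 in activin RAX-positive, 3.27 in activin RAX-negative, 2.58 in SAG RAX-positive and 2.89 in SAG RAX-negative cells. It had 3.55 in the Wi control, 1.69 in the eye, 2.68 in the diencephalon/hypothalamus and 2.58 in the cortex. Only the step down to the eye separated neighbours beyond the error, and the diencephalon/hypothalamus and cortex lay among the cultures. Activin minus SAG was -0.03 in RAX-positive and 0.37 in RAX-negative cells, both inside the error. A second, dim Fdft1 probe, not well above background on every array, ran in another order with the diencephalon/hypothalamus highest, so the 2 probes disagreed.

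The Sqle probe matches chr15:59162688-59162747, plus strand. Sqle, squalene epoxidase and a rate-limiting step after the mevalonate route, had levels of 4.70 in activin RAX-positive, 5.28 in activin RAX-negative, 5.24 in SAG RAX-positive and 4.84 in SAG RAX-negative cells. It had 4.90 in the Wi control, 3.76 in the eye, 4.27 in the diencephalon/hypothalamus and 4.54 in the cortex. The crossing of the sorted arrays was plainest here, with activin RAX-negative and SAG RAX-positive cells high and the other 2 low. Activin minus SAG was -0.53 in RAX-positive and 0.43 in RAX-negative cells. Sqle was the 1 gene of the 8 in which both differences passed the scanner error with opposite signs, a pattern held by 1.45% of the 21195 genes above background on the 4 sorted arrays.

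The Lss probe matches chr10:76015992-76016051, plus strand. Lss, which closes the rings to lanosterol, had levels of 1.30 in activin RAX-positive, 2.42 in activin RAX-negative, 1.27 in SAG RAX-positive and 1.12 in SAG RAX-negative cells. It had 1.61 in the Wi control, -0.46 in the eye, 0.19 in the diencephalon/hypothalamus and 0.52 in the cortex. One array, activin RAX-negative, stood above all others beyond the error, and the other 3 sorted arrays were together. Lss spanned 7.39-fold over the 8 arrays, the widest span of the 8 genes. For Lss activin minus SAG was 0.03 in RAX-positive and 1.30 in RAX-negative cells, the second a 2.47-fold difference.

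The Cyp51 probe matches chr5:4081471-4081530, minus strand. Cyp51, the lanosterol demethylase, had levels of 2.39 in activin RAX-positive, 2.69 in activin RAX-negative, 1.85 in SAG RAX-positive and 2.02 in SAG RAX-negative cells. It had 2.00 in the Wi control, 0.65 in the eye, 1.78 in the diencephalon/hypothalamus and 2.32 in the cortex. Both activin arrays were above both SAG arrays, so Cyp51 did not turn. Cyp51 differed between activin and SAG by 0.54 in RAX-positive and 0.67 in RAX-negative cells.

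The Dhcr7 probe matches chr7:151033874-151033933, plus strand. Dhcr7, the reductase of the last step to cholesterol and the gene mutated in Smith-Lemli-Opitz syndrome, had levels of 1.22 in activin RAX-positive, 2.21 in activin RAX-negative, 1.54 in SAG RAX-positive and 1.52 in SAG RAX-negative cells. It had 2.39 in the Wi control, -0.13 in the eye, 0.39 in the diencephalon/hypothalamus and 0.84 in the cortex. The Wi control and activin RAX-negative cells stood above the other 3 cultures, which stood above the tissues, the step from the lowest of them to the cortex being inside the error. For Dhcr7 activin minus SAG was -0.32 in RAX-positive and 0.69 in RAX-negative cells, and the first lay inside the error.

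Across the 8 genes, in RAX-positive cells activin minus SAG was above 0 for 4 genes and below 0 for 4, against 63.5% and 36.5% of all 29087 genes detected, with a median of 0.00 against 0.24 over all genes. No member was called, against 17.6% of all genes called higher and 7.12% called lower. Cyp51 was higher and Sqle lower beyond the scanner error, against 35% and 17.8% of all genes. In RAX-negative cells activin minus SAG was above 0 for 8 of 8 genes (7 or 8 by scaling and probe rule), against 51.6% of 25531 genes detected, with a median of 0.68 against 0.04 over all genes. Over genes above background on both arrays, as the 8 are, the all-gene median was 0.15 in RAX-positive and 0.12 in RAX-negative cells. Idi1 and Lss were called higher, 2 of 8 (1 to 5 over the alternatives) against 13.9% of all genes, and none lower against 19.7%. The difference passed the scanner error in 6 of 8, against 32.3% of all genes, with Hmgcs1 and Fdft1 inside it. Since these values chose the genes, nothing is read from the counts.

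**Figure D2:**
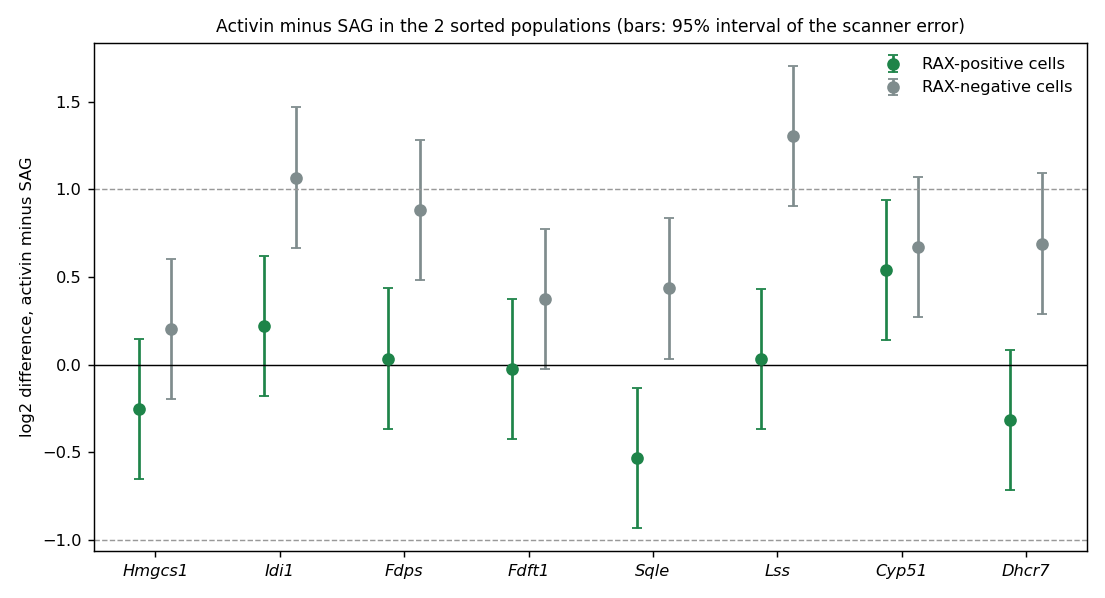
Activin minus SAG (log2) for each gene in RAX-positive cells and in RAX-negative cells, with bars for the 95% interval of the scanner's error and dashed lines at a 2-fold difference. The RAX-negative point lies above the RAX-positive point for all 8 genes, and the RAX-positive points lie on both sides of 0.

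The sign was opposite in 4 of 8 genes, Hmgcs1, Fdft1, Sqle and Dhcr7, against 13.9% of all genes with activin lower in RAX-positive and higher in RAX-negative cells. In Idi1, Fdps and Lss the RAX-positive difference was near 0 or slightly positive, and its sign in Fdps and Lss turned with the way the arrays were scaled, and that of Fdft1 with the normexp background correction. Hmgcs1 no longer had opposite signs with quantile scaling or in the authors' table, nor did Fdft1 with the mean over all probes. Subtracting the RAX-negative from the RAX-positive difference gave a value below 0 in 8 of 8 genes, from -1.27 in Lss to -0.13 in Cyp51, against 52.4% of all genes. That value passed the scanner error in 5 of 8, Lss, Dhcr7, Sqle, Idi1 and Fdps, against 18.7% of all genes. The median was -0.85, against -0.04 over all genes. It was below 0 in 8 of 8 under each of the 7 scalings and probe rules, the main one included. Since the genes were chosen for this turn, these counts and medians are a description. The scalings reuse the same 4 arrays and add no support. A value below 0 was not particular to sterol genes. Among genes above background on these 4 arrays it was found in 7 of 8 hypoxia genes (median -0.72), 4 of them with opposite signs. It was also found in 6 of 6 cell cycle genes (-0.45) and 7 of 7 pluripotency markers (-1.74). By contrast, 1 of 8 neuronal and 0 of 6 mesenchyme markers were below 0.

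**Figure D3:**
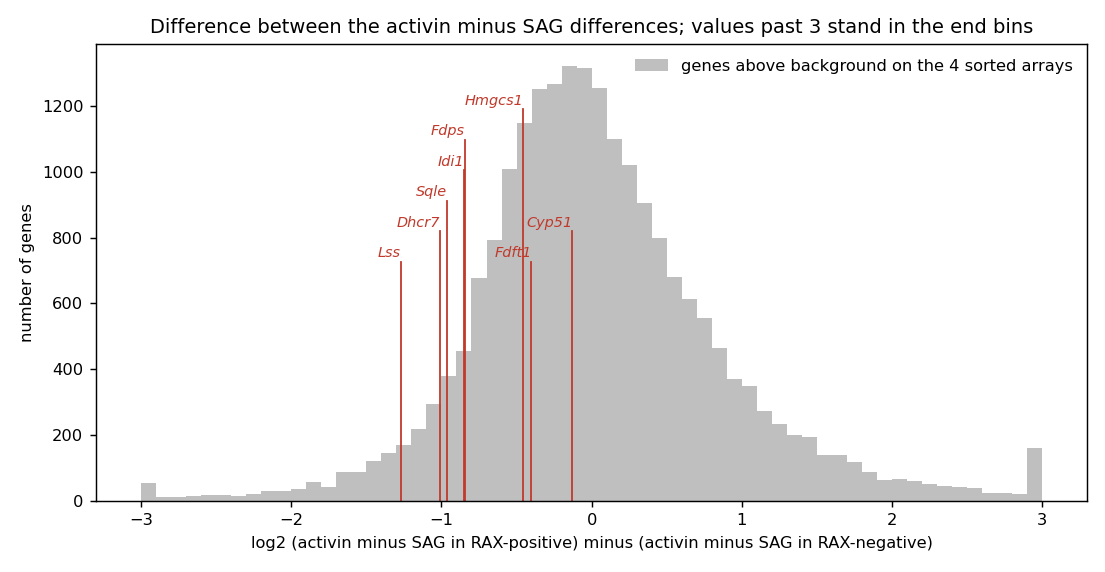
Number of genes (grey bars, 0.1 log2 units wide) by the activin minus SAG difference in RAX-positive cells minus that in RAX-negative cells, for the 21195 genes above background on the 4 sorted arrays. Red lines mark the 8 genes, all of which lie below 0, between -1.27 for Lss and -0.13 for Cyp51.

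The same 4 arrays, whose values chose the genes, were also read by sort gate, as a description. After activin, RAX-positive cells were below RAX-negative cells in 8 of 8 genes (7 or 8 by scaling and probe rule), against 37.5% of all genes, with a median difference of -0.62 against 0.19 over all genes. Lss (-1.12) was called lower, 1 of 8 (1 to 5 over the alternatives) against 6.31% of all genes, and Dhcr7 (-0.98) came close. After SAG, RAX-positive cells were above RAX-negative cells in 6 of 8 genes (4 to 7 by scaling and probe rule), against 56% of all genes, with a median of 0.17 against 0.08 over all genes. None was called, against 7.44% of all genes higher and 10.4% lower. None passed the scanner error either, against 21.7% above and 20.7% below 0, and the values ran from -0.32 in Fdft1 to 0.39 in Sqle.

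The activin RAX-negative cells differed from the other sorted cells in more than sterol genes. In activin minus SAG among RAX-negative cells 6 of 8 pluripotency markers were called higher, Pou5f1 by 7.69, and 4 of 6 endoderm markers, against 13.9% of all genes. Nanog (-0.91) and Tdgf1 (-0.18) were not called on their brightest probes. Other probes disagreed, with 6.59 and 6.25 for Nanog and 4.65 and 4.57 for Tdgf1. Afp, 1 of the 6 endoderm markers, was not well above background on any sorted array. Called lower were 7 of 8 neuronal markers, with a median of -3.62, and 5 of 6 hypothalamus markers, with a median of -3.46, against 19.7% of all genes. Gata6, an endoderm transcription factor, had levels of -3.92 in activin RAX-positive, -0.61 in activin RAX-negative, -5.51 in SAG RAX-positive and -4.86 in SAG RAX-negative cells. Cer1, a secreted endoderm antagonist of Nodal, had levels of -2.60 in activin RAX-positive and 1.83 in activin RAX-negative cells and was not well above background in either SAG population. Pou5f1, which marks undifferentiated cells, had levels of -3.60 in activin RAX-positive, 3.86 in activin RAX-negative, -5.05 in SAG RAX-positive and -3.83 in SAG RAX-negative cells. The summed level of the 8 pluripotency markers was 3.28 in activin RAX-positive, 6.20 in activin RAX-negative, 2.50 in SAG RAX-positive and 2.93 in SAG RAX-negative cells. That of the 8 neuronal markers, a sum in which the brightest probes weigh most, was 4.67 in activin RAX-positive, 5.75 in activin RAX-negative, 6.22 in SAG RAX-positive and 7.41 in SAG RAX-negative cells. Stmn2 alone, at 5.28, made most of the activin RAX-negative sum. Gene by gene, 2 of the 8 neuronal markers were below 0 in activin RAX-positive minus RAX-negative cells, against 37.5% of all genes, with a median of 0.29. The 6 cell cycle genes were higher after activin in RAX-negative cells by a median of 0.68. Their part in the sterol gene values was not tested. In bulk RNA of this kind, fewer cells of a type and less RNA per cell cannot be told apart. The sort itself was visible in Rax, which was 3.15 higher in RAX-positive than in RAX-negative cells after activin and 2.41 higher after SAG.

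The Wi array was not among the 4 that chose the genes, but each difference from it has 1 of those 4 on its other side, so these values are a description too. In activin RAX-positive cells minus the control the median was -0.22 against 0.35 over all genes, and Dhcr7 (-1.17) and Fdft1, which just reached the 2-fold limit, were called lower, 2 of 8 (1 to 3 over the alternatives) against 14.7% of all genes, and none higher against 28.9%. In activin RAX-negative cells minus the control the median was 0.50 against 0.01, and Idi1 (1.30) was called higher, 1 of 8 (0 to 4 over the alternatives) against 18.1% of all genes, and none lower against 21.9%. Neither SAG population had a called gene (0 to 2 in each over the alternatives), with medians of -0.11 in RAX-positive cells, where 21% of all genes were called higher and 19.2% lower, and -0.25 in RAX-negative cells, where 17.2% were called higher and 17.4% lower. Fdft1 and Dhcr7 were below the control in all 4 sorted populations on the main probes, whereas Idi1 was above it in all 4. With the mean over both probes Fdft1 was above the control in both SAG populations, at 0.17 in RAX-positive and 0.087 in RAX-negative cells. Line, sorting, slide and the second agent all differ between these arrays and cannot be told apart. Marker levels differed as well. The summed pluripotency level was 7.21 in the control, against 6.20 in activin RAX-negative cells, the highest of the sorted arrays. The summed cortex marker level was 5.25 in the control, against at most 1.36 in sorted cells. What these markers mean for the sterol gene values was not tested.

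The rule for the genes did not use the 3 tissue arrays, although earlier results of these data were known when the genes were put together. The dissections differed in markers, with the eye gene Six6 at 3.31 in the eye, 1.76 in the diencephalon/hypothalamus and -5.09 in the cortex. Lhx2, of the same marker list, was instead highest in the cortex, at 7.33 against 4.34 in the eye and 3.70 in the diencephalon/hypothalamus. The hypothalamus gene Nkx2-1 was at 3.09 in the diencephalon/hypothalamus and -5.87 in the cortex, and was not well above background in the eye. The cortical neuron gene Tbr1 was at -4.43 in the eye, -1.26 in the diencephalon/hypothalamus and 4.75 in the cortex. The eye was the lowest of the 8 arrays for 8 of 8 genes, against 10.3% of all genes. Eye minus cortex was below 0 in 8 of 8 genes, against 44.5% of all genes, and ran from -1.67 in Cyp51 to -0.79 in Sqle, with a median of -1.11 against 0.11 over all genes. All 8 passed the scanner error, against 24.7% of all genes. Cyp51, Idi1 (-1.65), Fdps (-1.25) and Hmgcs1 (-1.23) were called lower, 4 of 8 (2 to 8 over the alternatives) against 7.32% of all genes.

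Eye minus diencephalon/hypothalamus was also below 0 in 8 of 8, against 35.9% of all genes, and ran from -1.13 in Cyp51 to -0.45 in Idi1, with a median of -0.72 against 0.20 over all genes. All 8 passed the scanner error, against 16.6% of all genes, and Cyp51 was called lower, 1 of 8 (1 to 5 over the alternatives) against 8.58%. Cortex minus diencephalon/hypothalamus was smaller, with a median of 0.41 against 0.05, and Idi1 (1.19) was called higher, 1 of 8 (0 or 1 over the alternatives) against 8.59%. The order of cortex above diencephalon/hypothalamus above eye was found in 7 of 8 genes (5 to 8 by scaling and probe rule), against 16.3% of all genes, and Fdft1 was the exception with the first 2 within 0.10 of each other. With quantile scaling and in the authors' deposited table Hmgcs1 and Sqle turned as well, to -0.14 for Hmgcs1 and -0.17 for Sqle in that table, against 0.38 and 0.27 here.

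The composition of the dissected tissues differed too. In the eye, 6 of 6 lens markers were called higher than in the cortex, against 19.1% of all genes, and 6 of 6 than in the diencephalon/hypothalamus, against 12.3%. Cryaa, a lens crystallin, had levels of 8.08 in the eye, -5.18 in the diencephalon/hypothalamus and -5.45 in the cortex. The summed level of the 6 lens markers was 9.01 in the eye, -1.40 in the diencephalon/hypothalamus and -3.23 in the cortex. Of the 8 neuronal markers, 7 were lower in the eye than in the cortex, against 44.5% of all genes, with a median difference of -2.34. The summed level of the 7 mesenchyme markers was 6.54 in the eye, 5.82 in the diencephalon/hypothalamus and 5.34 in the cortex. The 6 cell cycle genes were lower in the eye than in the cortex in 6 of 6, against 44.5% of all genes. They were higher in the eye than in the diencephalon/hypothalamus in 6 of 6, where 35.9% of all genes were lower. Haemoglobin RNA was present in all 3 tissues, with Hba-a1 levels of 8.27 in the eye, 7.58 in the diencephalon/hypothalamus and 7.92 in the cortex, and at most -3.73 in any culture. Their part in the sterol gene values was not tested.

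Against the tissues as a whole, the 5 cultures all stood above the eye in 8 of 8 genes, against 22.4% of all genes. The lowest culture exceeded the eye by 1.71-fold in Idi1 and by 2.99-fold in Lss, the ends of the range. In 5 of 8 genes, Hmgcs1, Sqle, Fdps, Lss and Dhcr7, all 5 cultures stood above all 3 tissues, against 9.66% of all genes, though this number was 1 to 5 according to the scaling. Of the 8 hypoxia genes, 7 also had all 5 cultures above all 3 tissues, and their part in the sterol gene values was not tested.

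The list of other sterol synthesis genes held 11, from acetyl-CoA to the last steps. In RAX-negative cells 2 of 11 were called higher after activin than after SAG, Lbr (1.11) and Mvd (1.09), against 13.9% of all genes, with a median of 0.59 against 0.04. In RAX-positive cells none was called, with a median of -0.04 whose sign turned with the scaling. Mvd, which makes isopentenyl diphosphate, the substrate of Idi1, had levels of 1.90 in activin RAX-positive, 2.97 in activin RAX-negative, 1.99 in SAG RAX-positive and 1.89 in SAG RAX-negative cells. Like Lss, it was high in activin RAX-negative cells and close to level in the other 3. The RAX-positive minus RAX-negative value of activin minus SAG was below 0 in 10 of 11 (9 to 11 by scaling and probe rule), against 52.4% of all genes. In the eye minus cortex comparison 10 of 11 were below 0, against 44.5% of all genes, with a median of -0.78, and Msmo1, Sc5d, Tm7sf2 and Lbr were called lower, 4 of 11 against 7.32%. The eye was the lowest of the 8 arrays for 9 of 11, against 10.3% of all genes.

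Among the 8 genes of cholesterol uptake and handling, Stard4 and Scarb1 had differences of opposite sign that both passed the scanner error. Stard4, which carries cholesterol between membranes, had -0.58 in RAX-positive and 0.99 in RAX-negative cells. A second Stard4 probe gave 0.82 in RAX-positive and 1.23 in RAX-negative cells, so its 2 probes disagreed on the sign in RAX-positive cells. Scarb1, a lipoprotein receptor, had -0.66 in RAX-positive and 0.60 in RAX-negative cells, while a second Scarb1 probe gave -0.70 in RAX-positive and 0.06 in RAX-negative cells, the second value inside the error. Npc1, which exports cholesterol from lysosomes, did not turn, with 1.36 in RAX-positive and 1.47 in RAX-negative cells. Called higher were 1 of 8 in RAX-positive and 1 of 8 in RAX-negative cells, both times Npc1, against 17.6% and 13.9% of all genes. None was called lower, against 7.12% and 19.7%. The RAX-positive minus RAX-negative value of activin minus SAG was below 0 in 4 of 8 (3 to 7 by scaling and probe rule), against 52.4% of all genes. In the tissues Lrp8, a reelin receptor, was called lower in the eye than in the cortex, with a difference of -2.82, against 7.32% of all genes. Lipa (1.51) and Mylip (1.06) were called higher, against 19.1% of all genes.

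The 7 regulators include the SREBP genes and the proteins that retain or cleave SREBP. In RAX-positive cells Srebf2 (-1.23) and Insig1 (-1.17) were called lower after activin than after SAG, 2 of 7 against 7.12% of all genes, and in RAX-negative cells they stood at 0.09 and 0.13, with none of the 7 called. Srebf2 had levels of 0.57 in activin RAX-positive, 0.99 in activin RAX-negative, 1.79 in SAG RAX-positive and 0.90 in SAG RAX-negative cells. SAG RAX-positive cells held the highest Srebf2 level of the 4, whereas 7 of the 8 enzyme genes had theirs in activin RAX-negative cells. Srebf1, the partner gene linked more to fatty acid synthesis, differed by -0.87 in RAX-positive and 0.49 in RAX-negative cells.

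Fatty acid synthesis genes, which share SREBP control, were called higher in RAX-negative cells in 3 of 11, Me1 (2.17), Elovl6 (1.14) and Scd1 (1.00), against 13.9% of all genes. In RAX-positive cells 1 of 11 was called higher, Me1 (1.28), against 17.6%. The difference between the gates was below 0 in 11 of 11 (10 or 11 by scaling and probe rule), against 52.4% of all genes. Acaca, acetyl-CoA carboxylase, had -0.44 in RAX-positive and 0.78 in RAX-negative cells. Of its 4 probes 3 had opposite signs in the 2 populations, and the other gave -1.69 in RAX-positive and -0.43 in RAX-negative cells. In the tissues the fatty acid genes were low in the eye too, with a median eye minus cortex difference of -0.67. The eye was the lowest of the 8 arrays for 8 of 11 fatty acid genes, against 10.3% of all genes. The efflux genes Abca1 and Abcg1, targets of the sterol-activated LXR receptors, were called lower after activin in both populations, 2 of 9 each against 7.12% of all genes in RAX-positive and 19.7% in RAX-negative cells. Abca1 had differences of -1.15 in RAX-positive and -1.39 in RAX-negative cells, and Abcg1 had -1.96 in RAX-positive and -1.32 in RAX-negative cells. Apoe, an LXR target as well, was called higher in both, by 1.02 in RAX-positive and 1.54 in RAX-negative cells. With Nr1h3 (1.25) and Ch25h (1.76), 3 of 9 were called higher in RAX-positive cells, against 17.6% of all genes. Ch25h was not well above background in SAG RAX-positive cells. In RAX-negative cells Soat1 (1.48) was called higher too, against 13.9% of all genes. Among 7 genes of the isoprenoid branches, which leave the pathway at farnesyl diphosphate, Pdss1 (1.09) was called higher in RAX-negative cells, 1 of 7 against 13.9% of all genes, and none in RAX-positive cells.

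**Figure D4:**
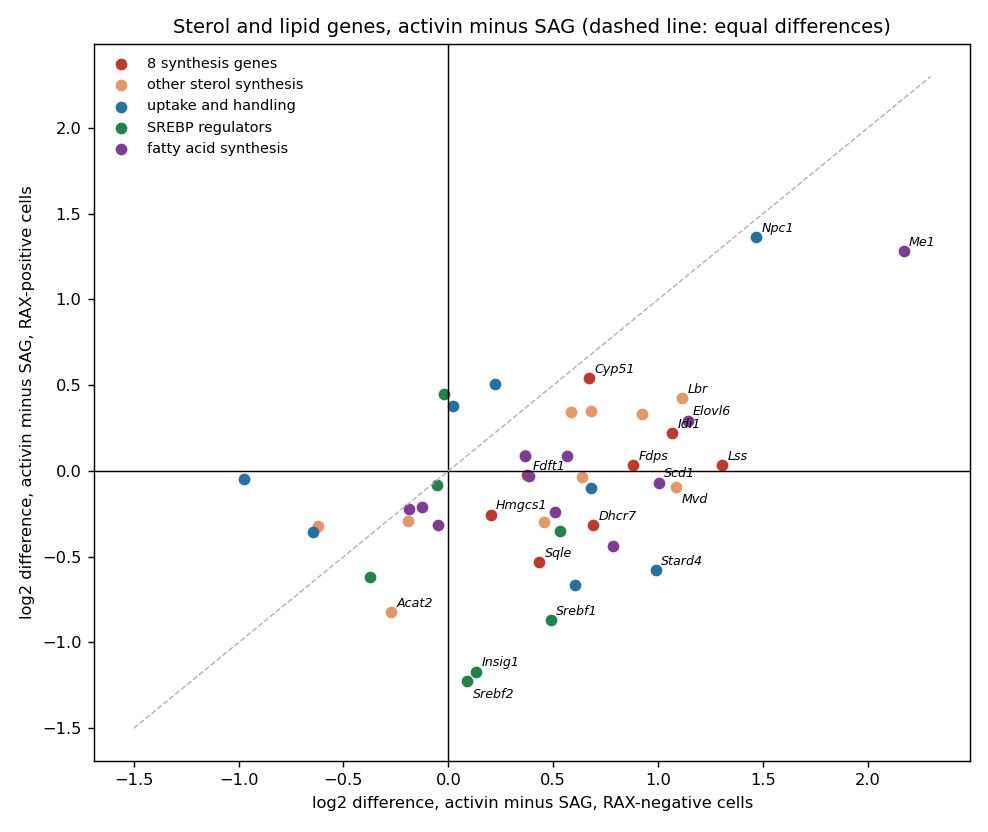
Activin minus SAG (log2) in RAX-negative cells (horizontal) and in RAX-positive cells (vertical) for the 8 genes and 4 related lists, 1 point a gene, with a dashed line where both are equal. Most points lie under the dashed line, and Srebf2 and Insig1 stand apart at -1.23 and -1.17 on the vertical axis with values near 0 on the horizontal.

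**Figure D5:**
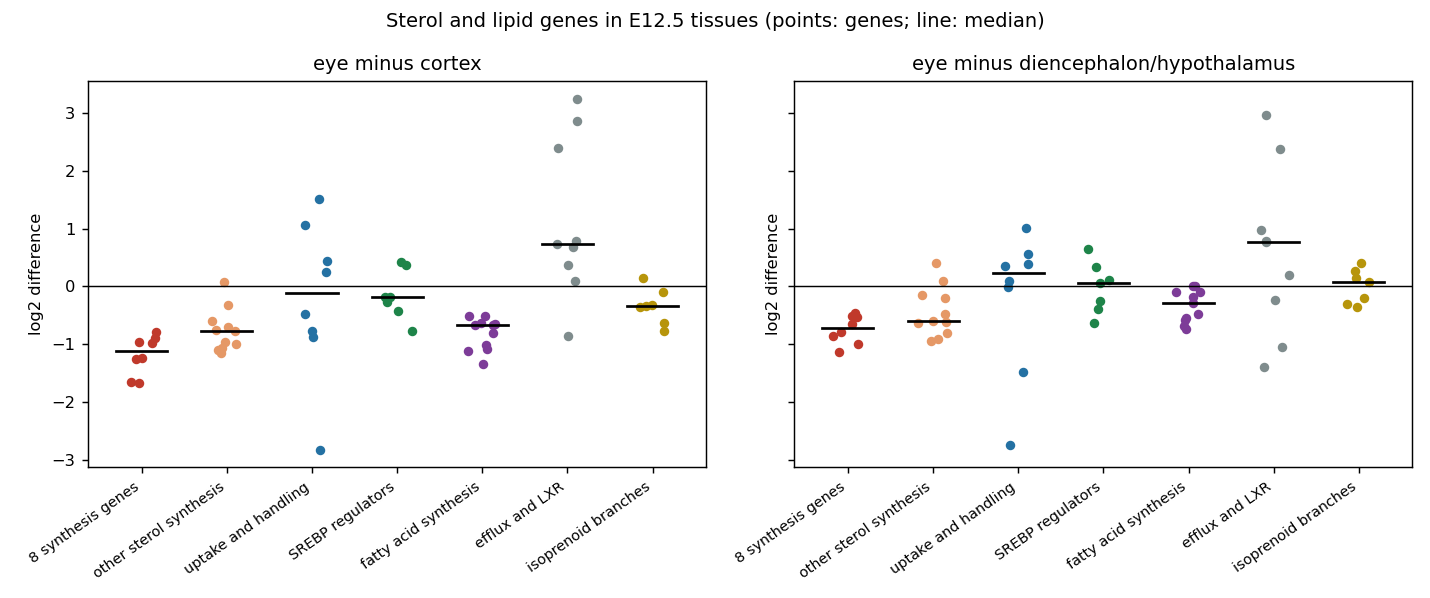
Eye minus cortex (left) and eye minus diencephalon/hypothalamus (right) in log2 for the 8 genes and 6 related lists, 1 point a gene and a line at each median. The 8 genes lie wholly below 0 in both panels, with medians of -1.11 and -0.72. Medians are also below 0 in both panels for other sterol synthesis (-0.78 and -0.60) and fatty acid synthesis (-0.67 and -0.28). The uptake, regulator and isoprenoid lists have medians below 0 on the left and above 0 on the right, and the efflux list has medians above 0 in both.

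Likeness across the 8 arrays was described by Pearson's r with the mean profile of the 8 genes, over 10453 other genes that were above background on all arrays and varied by an SD of at least 0.5. The arrays share their tissues and treatments, and r is a description with no p. The first 3 places were taken by the probes that share letters with Fdps, NAP111402-1 (r = 0.994), NAP002856-002 (0.992) and A_55_P2046411 (0.991). Aacs, acetoacetyl-CoA synthetase, which feeds ketone bodies into lipid synthesis, followed at 0.984, and Nsdhl, a sterol enzyme, stood at rank 9 with 0.954. The rest of the first 10 were A_55_P2046408 (0.983), A_55_P2072925 (0.971), H2-K1 (0.964), Ndufa4l2 (0.960) and Bahcc1 (0.953). The lowest of all was an unnamed transcript on chromosome 10 at -0.972, with Cers3, a ceramide synthase, at -0.966 and 5430411C19Rik at -0.950. Among the 8 themselves, the r of each gene with the mean of the other 7 was highest for Fdps (0.993) and lowest for Idi1 (0.768).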

How the data were processed

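The authors deposited Agilent Feature Extraction files for 8 one-colour arrays, version 10.7.3.1 and probe positions on mm9 per the file headers, whereas the submitters' processing notes name version 9.1 and limma. The processed spot intensity is the authors' background-corrected signal per the file headers. The authors also deposited a table of log2 values whose normalization is not given in the sources used here. Its columns have medians of 6.36 to 6.40, and it served as an alternative.

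From the intensities, control and outlier spots were left out, repeat spots averaged, log2 taken and the 75th percentile subtracted. A gene was read from its probe of highest mean. Of 55681 probes, 27927 were named through RefSeq accessions and the rest as in the files. Python 3.11.15, pandas 2.3.3, and R 4.3.3 with limma 3.58.1 (normexp, offset 50) were used.

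With 1 array a group there was no test between groups, and p-values are not given. The number of arrays limits the precision. The genes and all lists were chosen with earlier results of these data known. The text names all 8 genes, from each list those called in both activin minus SAG comparisons or among the 3 largest or smallest differences, and the 10 most and 3 least like genes. Marker genes were named as context. Some genes of the lists are not reported here and were left out of the lists' counts.

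Alternatives were other scalings, normexp background, the authors' table, the mean over all probes, genes above background on both arrays, and a 1.5-fold size rule.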

Additional observations from a re-analysis of the deposited data

Results flagged for a closer look

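In 5 genes the activin minus SAG difference was below 0 in RAX-positive cells and above 0 in RAX-negative cells, each beyond the scanner's 95% error. They are 5 of the 59 genes above background among the 8 and the related lists, which were chosen with these data known, and 1.45% of all genes showed the pattern. With 1 array a group the difference between the gates was not tested. The RAX-positive difference minus the RAX-negative difference was -0.97 for Sqle, -1.26 for Scarb1, -1.57 for Stard4, -1.36 for Srebf1 and -1.22 for Acaca. Sqle is an enzyme of cholesterol synthesis, Scarb1 and Stard4 take up or carry cholesterol, and Srebf1 and Acaca belong to fatty acid synthesis. A second Stard4 probe did not turn, with 0.82 in RAX-positive and 1.23 in RAX-negative cells. A second Scarb1 probe gave -0.70 in RAX-positive and 0.06 in RAX-negative cells, and 1 of the 4 Acaca probes gave -1.69 in RAX-positive and -0.43 in RAX-negative cells.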

How the results depend on the processing

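The median of the 8 genes relative to all genes stayed within the scanner error of its main value in 59 of 59 alternatives in which it could move, leaving out scalings that shift all genes alike. That error is a fixed limit for a single gene and is wide for a median of 8. The count therefore does not show that the median was unmoved. Not set against all genes, the median for eye minus cortex ran from -1.60 to -0.85 over the scalings and probe rules, and that for activin minus SAG in RAX-negative cells from 0.44 to 1.03. Numbers of called genes moved more. With median scaling they were 5 for activin minus SAG in RAX-negative cells, 4 for the gates after activin, 2 for activin RAX-negative minus the Wi control, 1 each for the SAG populations minus the control, 8 for eye minus cortex and 3 for eye minus diencephalon/hypothalamus. With the 75th percentile over probes detected on all arrays they were 1 for activin minus SAG in RAX-negative cells, 1 for SAG RAX-positive minus the control, 2 for eye minus cortex and 0 for cortex minus diencephalon/hypothalamus. Quantile scaling gave 1, 0, 1, 3 and 0 for activin minus SAG in RAX-negative cells, activin RAX-negative and SAG RAX-positive minus the control, eye minus diencephalon/hypothalamus and cortex minus diencephalon/hypothalamus, and the authors' table gave 1, 0, 2, 3 and 0 for the same. Normexp background gave 1 for SAG RAX-positive minus the control. The mean over all probes gave 1 for activin RAX-positive minus the control and 3 for eye minus diencephalon/hypothalamus. The 1.5-fold rule gave 5 for activin minus SAG in RAX-negative cells, 5 for the gates after activin, 4, 2 and 2 for activin RAX-negative, SAG RAX-positive and SAG RAX-negative minus the control, and 8 and 5 for eye minus cortex and minus diencephalon/hypothalamus. The cause was not tested.

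Of 664 values of single genes, 46 had the opposite sign to the main value, 44 of them from a main value inside the scanner error. The remaining 2 turned from a value beyond it: with the mean over both probes Fdft1 was 0.17 in SAG RAX-positive cells minus the control (main probe -0.98) and 0.087 in SAG RAX-negative cells minus the control (main probe -0.66), where the second probe is dim. Opposite signs between the gates were found in 3 to 6 genes, and the eye stayed lowest for 8 of 8. The scaling moved the median of all probes for eye minus cortex between -0.42 with median scaling and 0.33 with the percentile over detected probes. No paired analysis was possible because each group has 1 array.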
